A study of Mus musculus with 6 samples.

Results

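Mitochondrial ribosomal proteins are the nuclear-encoded protein parts of the ribosome that works inside mitochondria. The genes described here are the protein-coding genes with a symbol of the form Mrpl or Mrps plus a number. Of 78 such genes in the count table, 77 had at least 30 reads over all libraries, out of 55359 rows in all and 21149 rows with at least 1 read. They comprised 48 Mrpl and 29 Mrps genes on 17 chromosomes, and all 77 passed the expression filter of the test. A further 5 matching symbols named pseudogenes and were left out. The same 77 genes were found with a minimum of 10 or 60 reads.

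The mitochondrial ribosome, or mitoribosome, makes the few proteins encoded in mitochondrial DNA, which are membrane subunits of the respiratory chain and of ATP synthase. Its ribosomal RNAs come from mitochondrial DNA, whereas all of its proteins are made in the cytosol from nuclear genes and imported. Some of these proteins have a counterpart in bacterial ribosomes, and others are particular to mitochondria. The small subunit reads the messenger RNA, and the large subunit joins amino acids and releases the chain toward the inner membrane.

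The study used bone marrow cells of C57BL/6 mice, grown for 4 days in GM-CSF and IL-6, 2 growth factors of myeloid cells, at 40 ng/ml each. Polymorphonuclear myeloid-derived suppressor cells, immature neutrophil-like cells that restrain T cells, were taken from these cultures with an isolation kit. In the mtDNA group, cells were transfected with mitochondrial DNA at 250 ng/ml by a lipid reagent (Lipofactamine 2000 in the labels' spelling), and RNA was taken at 12 h. The blank group came from the same kind of cells without mtDNA, and each group had 3 RNA-seq libraries. It is not stated if the reagent was also given to blank cells, and no group received another DNA, so an effect of mtDNA cannot be told apart from one of the reagent or of any transfected DNA. Separate mice or cultures are not stated either, so the p-values rest on library-to-library spread alone, possibly technical.

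Library totals ran from 4018360 to 4911103 counts, and 1 read was worth 0.200 to 0.256 CPM (counts scaled to a common library size, here with TMM factors, which set the bulk of genes level between libraries). All 12 neutrophil markers were tested, with a summed level of 7838 to 8258 CPM in blank and 8185 to 8818 CPM in mtDNA libraries, and 1 of them, the granule gene Ngp, rose. Ly6g, which defines mouse neutrophils, stood at only 4.87 ± 0.954 CPM in blank and 5.81 ± 1.14 CPM in mtDNA libraries (SD, n = 3). The 8 monocyte and macrophage markers summed to 3769 to 3863 CPM in blank and 4698 to 4980 CPM in mtDNA libraries, and 5 of the 8 rose. Dendritic cell markers, led by the MHC class II partner Cd74, summed to 5416 to 5880 CPM in blank and 5812 to 6273 CPM in mtDNA libraries, with 6 of 8 tested and none called by edgeR or DESeq2 (1 at an unadjusted p under 0.05). The basophil, mast cell and eosinophil list summed to 185 to 204 CPM in blank and 212 to 230 CPM in mtDNA libraries, and 1 of 7, Mcpt8, rose. Lymphocyte, stromal and erythroid lists stayed at or under 48.3 CPM in every library, and the natural killer cell marker Ncr1 was at 0. Markers of several myeloid cell types were thus present. The part of this mixture in the results below was not tested, and fewer cells of a type cannot be told apart from less RNA per cell.

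The sequences below show promoter motifs of some genes, chosen after their changes were seen. They are from RefSeq on GRCm38.p6, where 68 of the 77 members had an entry, and they cover only bases before the annotated start. Each line reads 5′ to 3′ along the gene's strand, and capitals mark the motif or its reverse complement. The first 4 hold the core of an interferon-stimulated response element (ISRE, searched as GAAANNGAA), the element bound by interferon-activated factors. The next 2 hold a binding motif of the ETS family (CCGGAAG), to which the mitochondrial gene regulator Gabpa belongs. Then follow 2 with the core motif of nuclear respiratory factor NRF1 (GCGCATGC). The last is the stretch between the starts of Mrpl30 and its divergent neighbour Mitd1, in which none of the searched motifs lies. Mrps18a, Mrps18b and Mrps18c are shown because they are related genes that differed in their change, and Mitd1, Mrps21 and Mrpl39 because a result below turns on each.
Mitd1, chr1:37890629-37890658, minus strand: cctccaactcGAAACAGAAagaaagtcatt
Mrps18c, chr5:100798728-100798757, plus strand: ggcgcttaggGAAATAGAAaggaagaggaa
Mrps18a, chr17:46110902-46110931, plus strand: ggaggtgacaGAAACAGAAgggatcggtga
Mrps21, chr3:95871729-95871758, minus strand: ttcccatccaGAAAACGAAatcgctcaaat
Mrps18c, chr5:100798592-100798621, plus strand: gggtcacgtgaCTTCCGGcccgggaagcgc
Mrps18a, chr17:46110967-46110996, plus strand: acacccctgctCCGGAAGcggaagtgcaca
Mrpl39, chr16:84735351-84735380, minus strand: caaggagaggcGCGCATGCgcccccgcgtg
Mrps18b, chr17:35916645-35916674, minus strand: aacggcccgacGCATGCGCactgggagcac
Between Mrpl30 and Mitd1, chr1:37890412-37890476, plus strand: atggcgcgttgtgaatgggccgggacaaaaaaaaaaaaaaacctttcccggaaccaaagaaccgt

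Mitochondrial ribosomal protein transcripts were little changed as a group 12 h after transfection. Of the 77 members, 3 rose (Mrpl30, Mrpl39 and Mrps18c) and 3 fell (Mrpl11, Mrpl49 and Mrps18b) in the edgeR quasi-likelihood test at a Benjamini-Hochberg adjusted p under 0.05. That is 7.79% of the members, beside 17.8% of all 11190 tested genes. Among all tested genes 11.9% were called higher and 5.98% lower. The other 71 members did not pass. At an unadjusted p under 0.05 there were 19 members, beside 29.6% of all tested genes. Of these 5 were higher and 14 lower, or 6.49% and 18.2%, where all tested genes gave 16.4% and 13.1%.

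Changes among the members were small. The largest rise was 1.36-fold (Mrps18c) and the largest difference downward was 1.54-fold (Mrps36, which did not pass the test). The median absolute log2 fold change of the members was 0.14, against 0.15 for all tested genes, and the 90th percentile was 0.33 against 0.49. For 65 of the 77 members the 95% interval of the change lay within 1.5-fold in either direction. The intervals of the other 12 reached past 1.5-fold, 8 downward and 4 upward, so a change of that size is not excluded for them at this depth. All but Mrps36, whose interval ran from -1.14 to -0.09 on the log2 scale, lay within 2-fold.

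Small differences in the members leaned downward. The log2 fold change was below 0 in 51 of 77 members, or 66.2%, beside 52.0% of all tested genes, and its median was -0.10, beside -0.013 for all tested genes. The 3 blank and 3 mtDNA values did not overlap for 22 members, 6 higher and 16 lower in mtDNA (28.6%), where 33.5% of all tested genes were so placed (17.9% higher, 15.6% lower). Without the third mtDNA library the members' median was -0.046. Scaling by library totals alone moved the median of all tested genes from -0.013 to -0.13 and that of the members to -0.22. That scaling called 1 member higher and 21 lower (all tested genes 7.69% and 21.1%), and upper-quartile scaling called 2 higher and 14 lower (8.67% and 13.4%), so the balance of rises and falls among the members depended on the scaling.

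**Figure D1:**
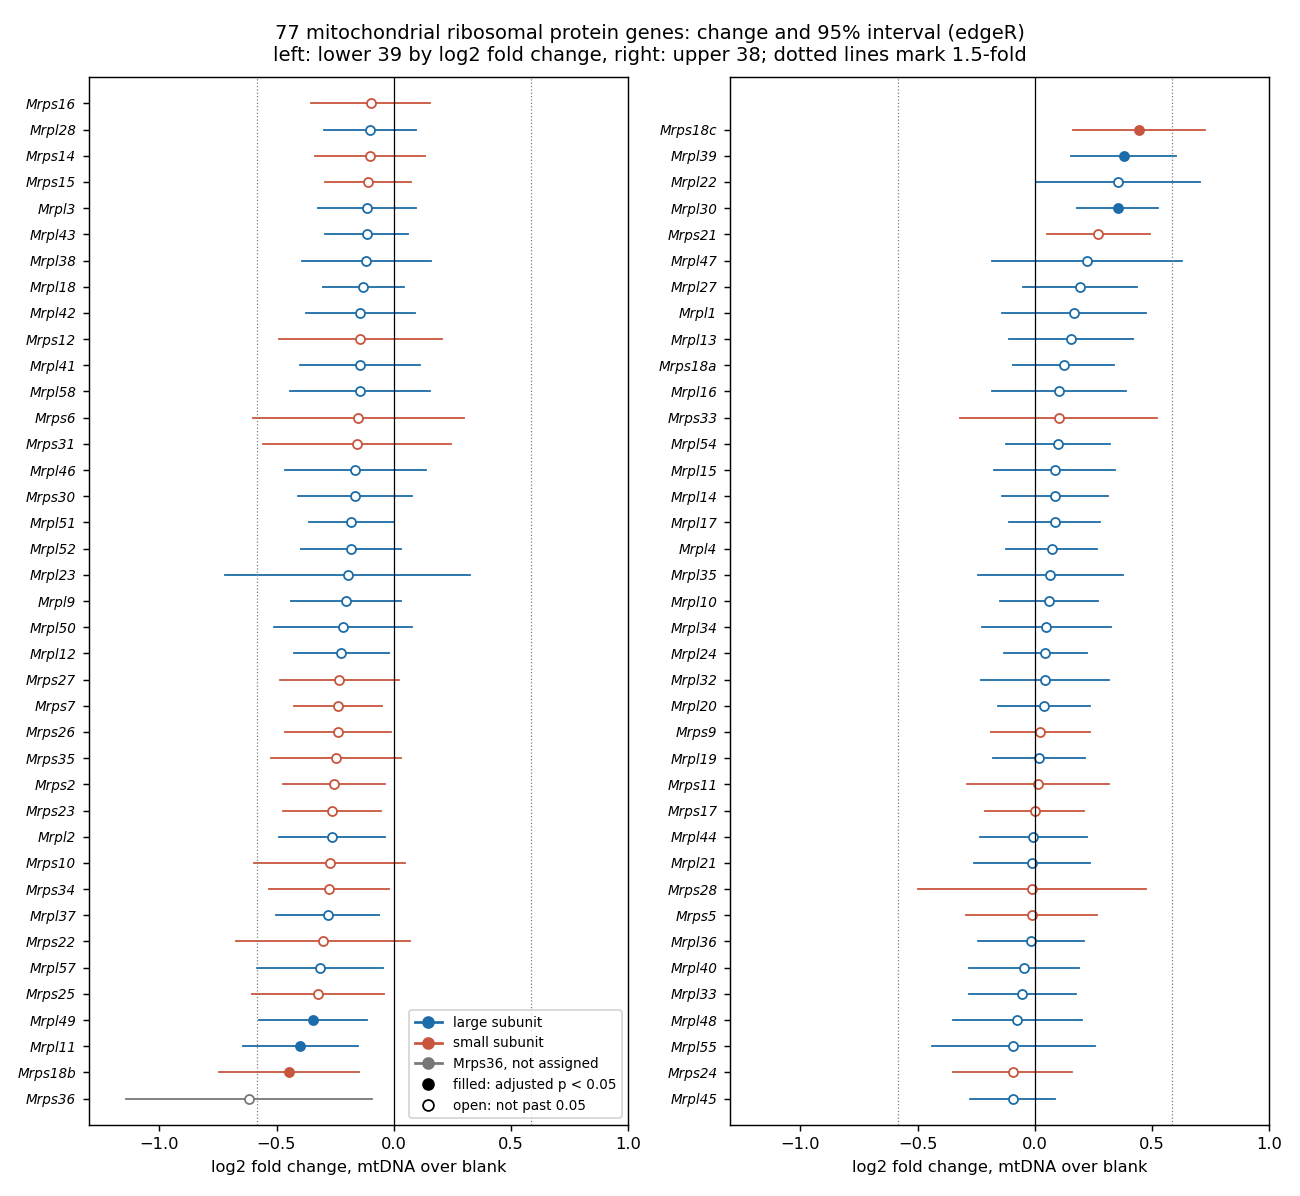
Log2 fold change (mtDNA over blank, horizontal axis) of each of the 77 genes with its 95% interval from edgeR, 3 libraries per group. Filled points passed an adjusted p of 0.05, and dotted lines mark 1.5-fold. Most points lie close to 0, 51 of the 77 to its left, and 6 are filled.

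The share of all counts taken by the 77 genes was 0.220%, 0.222% and 0.220% in the blank libraries and 0.197%, 0.196% and 0.194% in the mtDNA libraries. The groups did not overlap, with means of 0.220 ± 0.00114% and 0.195 ± 0.00170% (SD, n = 3) and a ratio of 0.886. On the TMM scale, which allows for other genes taking more of the counts, the members summed to 2122 ± 13.3 CPM in blank and 2043 ± 37.9 CPM in mtDNA libraries. Leaving mitochondrially encoded genes out of the total gave a ratio of the shares of 0.885.

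Mrpl30 showed the best supported rise. It encodes a large subunit protein with a bacterial counterpart and lies on chromosome 1 (ENSMUSG00000026087). Its level was 60.7, 52.1 and 49.9 CPM in blank libraries 1 to 3 and 71.8, 69.6 and 66.5 CPM in mtDNA libraries 1 to 3. Every mtDNA library lay above every blank library, although blank library 1 came closer than the other two. Its log2 fold change was 0.35 ± 0.083 (SE), with an adjusted p of 0.00400 in edgeR. It was the only member called in all 15 alternative analyses, where its log2 fold change ran from 0.23 to 0.44.

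Mrpl39 encodes a large subunit protein particular to mitochondria and lies on chromosome 16 (ENSMUSG00000022889). It measured 23.8, 24.6 and 21.96 CPM in blank and 30.7, 31.5 and 29.6 CPM in mtDNA libraries. The groups stood well apart, with each set of 3 close together. The fitted log2 fold change was 0.38 ± 0.11, with an edgeR adjusted p of 0.0162. The call was lost with library totals alone (0.0761), in DESeq2 (0.189), without the third blank library (0.0692) and without the second mtDNA library (0.0614).

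Mrps18c on chromosome 5 (ENSMUSG00000016833) encodes the small subunit form of the bacterial S18 protein. It measured 13.7, 15.03 and 17.4 CPM in blank and 21.7, 19.5 and 21.6 CPM in mtDNA libraries, and the groups did not overlap. Its log2 fold change was 0.44 ± 0.13, with an edgeR adjusted p of 0.0248. The adjusted p was above 0.05 with upper-quartile scaling (0.0539), library totals (0.0758) and DESeq2 (0.227), and without blank library 1 or 2 or mtDNA library 1 or 3 (0.0730 to 0.0996). A same-strand predicted gene, Gm43511, covers 23.2% of its exons and had 15 reads in blank and 9 in mtDNA libraries.

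Mrpl11 was lower in mtDNA libraries. Its protein sits at the base of the large subunit's stalk, where translation factors dock, and the gene is on chromosome 19 (ENSMUSG00000024902). The levels were 23.1, 25.2 and 26.3 CPM in blank and 18.4, 19.1 and 19.1 CPM in mtDNA libraries. All mtDNA values were tightly placed under the lowest blank value. The log2 fold change was -0.40 ± 0.12, with an edgeR adjusted p of 0.0214. Any single omission other than that of the first blank library took the adjusted p to between 0.0507 and 0.0784, and DESeq2 gave 0.230.

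Mrpl49, on chromosome 19 as well (ENSMUSG00000007338), encodes a large subunit protein particular to mitochondria. It stood at 29.4, 26.4 and 29.1 CPM in blank and 21.98, 22.5 and 22.2 CPM in mtDNA libraries. No mtDNA value reached the blank range. Its log2 fold change was -0.34 ± 0.11, with an edgeR adjusted p of 0.0334. It was not called without the expression filter (0.0510), by DESeq2 (0.287), or with any library left out except the second blank one (0.0721 to 0.1003). The ubiquitin ligase gene Syvn1 lies on the opposite strand over 4.85% of the exons of Mrpl49 and rose (log2 fold change 0.44 ± 0.068, adjusted p 4.91e-05 in edgeR).

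Mrps18b, on chromosome 17 (ENSMUSG00000024436), encodes a small subunit protein related to S18 but classed as particular to mitochondria. It measured 16.5, 20.04 and 19.3 CPM in blank and 15.3, 13.3 and 12.7 CPM in mtDNA libraries. The groups did not overlap, but the first library of each came close to the other group. Mrps18b had a log2 fold change of -0.45 ± 0.14, with an edgeR adjusted p of 0.0334. The call was lost in DESeq2 (0.283) and without blank library 2 or 3 or mtDNA library 2 or 3 (0.0943 to 0.130). Other genes, most of all the pseudogene Gm13552 with 1 read, share 26.7% of its 75-base windows. The antisense gene Gm16279, over 30.5% of its exons, had 3 reads in blank and 2 in mtDNA libraries.

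Of the 6 genes, then, 5 lost the call in at least 1 alternative, and DESeq2 called only Mrpl30 higher and no member lower, beside 7.44% and 1.4% of the genes to which it gave an adjusted p. None changed sign in any of the 15 alternatives.

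**Figure D2:**
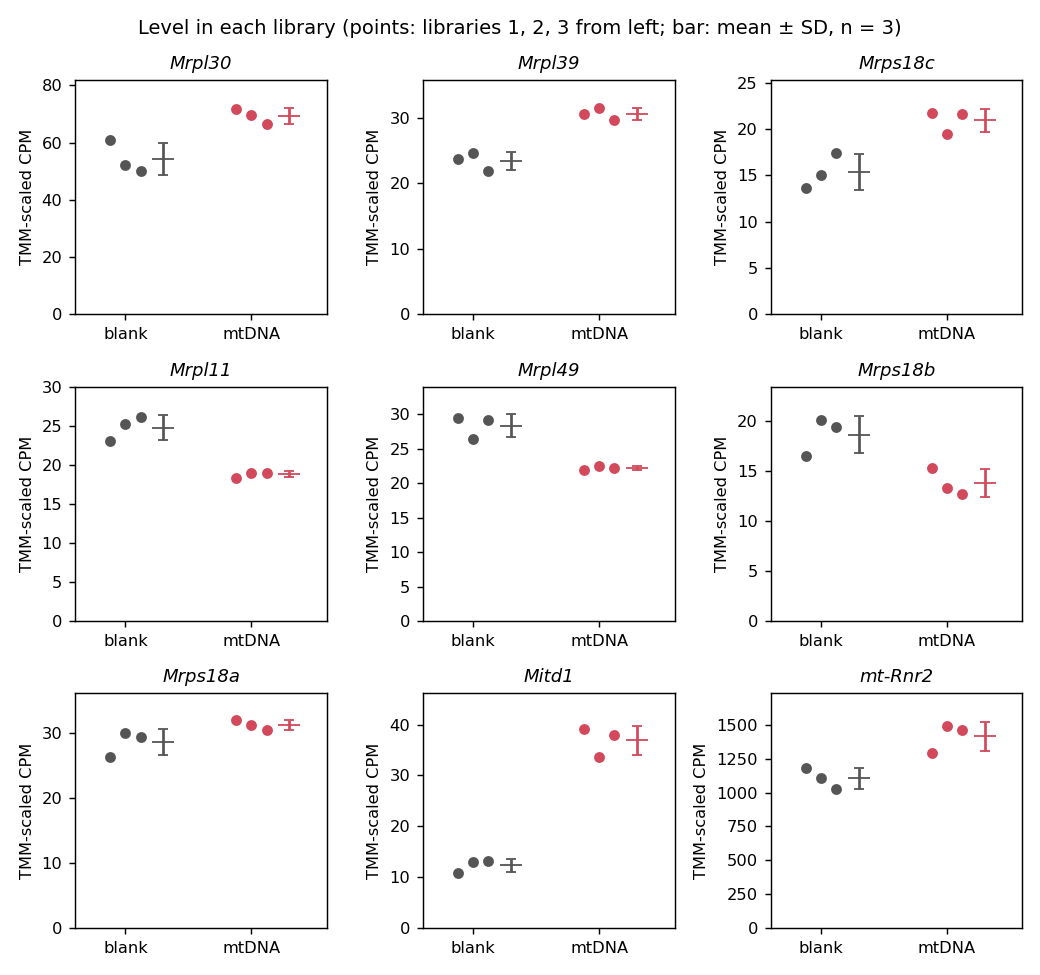
TMM-scaled CPM (vertical axis, from 0) of 9 genes in each library. Points are libraries 1, 2 and 3 from left, and the bar beside them is the mean with its SD (n = 3). In the 6 called members (upper and middle rows) no mtDNA point falls in the blank range, and Mitd1 shows the widest gap in fold.

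A set of 3 members descends from the bacterial S18 gene, and their log2 fold changes lay far apart. Mrps18a, whose product is in the large subunit despite its name, measured 26.4, 30.1 and 29.4 CPM in blank and 31.9, 31.3 and 30.5 CPM in mtDNA libraries. All mtDNA values were above all blank ones, yet the log2 fold change of 0.12 ± 0.10 did not pass (edgeR adjusted p 0.468). The count ratio of Mrps18c to Mrps18b was 0.829, 0.75 and 0.901 in blank libraries and 1.42, 1.47 and 1.70 in mtDNA libraries. In every blank library Mrps18b had more reads, and in every mtDNA library Mrps18c had more. The mean log2 ratio shifted by 0.89. An exact two-sided permutation test of the log2 ratio over the 20 assignments gave a p of 0.1, the smallest that 3 against 3 libraries can give, so it cannot pass 0.05. The other 2 ratios among these genes gave the same p, and the value adjusted over the 3 ratios was 0.1. Both genes were called in opposite directions, so the ratio restates those calls.

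The large subunit comprised 50 members. Places in the ribosome and bacterial counterparts were assigned from textbook knowledge, here and below. Its 29 proteins with a bacterial counterpart had a median log2 fold change of 0.045, with 11 below 0, 1 gene higher (Mrpl30) and 1 lower (Mrpl11). The 21 that are particular to mitochondria had a median of -0.14, with 18 below 0, 1 higher (Mrpl39) and 1 lower (Mrpl49). Differences in the central protuberance, the crown of the large subunit, were below 0 in 6 of the 6 members assigned to it here. Their median was -0.12. No protuberance gene was called, as with all 7 genes of the polypeptide exit side (median 0.045). Of all tested genes, 11.9% were called higher and 5.98% lower, and 52.0% lay below 0.

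Stalk proteins bring translation factors to the ribosome, and of the 4 measured members Mrpl11 alone was called. Mrpl12, the stalk protein proper, stood at 47.3, 39.3 and 46.1 CPM in blank and 35.8, 37.1 and 40.0 CPM in mtDNA libraries. Its groups overlapped through the second blank library. The fitted log2 fold change was -0.22 ± 0.098 (edgeR adjusted p 0.124, and 0.0474 without the second blank library). Mrpl58, a peptidyl-tRNA hydrolase built into the protuberance that can free stalled chains, measured 20.7, 17.6 and 21.5 CPM in blank and 17.4, 15.2 and 21.2 CPM in mtDNA libraries. Its groups overlapped, with a log2 fold change of -0.14 ± 0.14 (edgeR adjusted p 0.548).

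Mrps30, a further large subunit member under a small subunit symbol, measured 22.6, 24.8 and 27.2 CPM in blank and 21.5, 23.3 and 21.6 CPM in mtDNA libraries. The groups overlapped, with a log2 fold change of -0.17 ± 0.12 (edgeR adjusted p 0.373).

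The small subunit comprised 26 members, 21 of them below 0, with a median log2 fold change of -0.15. Without the third mtDNA library this median was -0.047 and 17 were below 0. The 16 proteins with a bacterial counterpart had a median of -0.10, and Mrps18c was the only one called. The 10 that are particular to mitochondria had a median of -0.25, with 9 below 0 and Mrps18b alone called. Mrps33 was the exception above 0, and its groups overlapped (log2 fold change 0.10 ± 0.20). Among all tested genes 52.0% lay below 0, 11.9% were called higher and 5.98% were called lower.

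Over both subunits, the 31 members particular to mitochondria had a median of -0.16 with 27 below 0, and the 45 with a bacterial counterpart had a median of -0.0015 with 23 below 0. Mrps18a and Mrps18b were counted among the 31 although they are related to S18. Between 25 and 29 of the 31 stayed below 0 in the 15 alternatives. Of the 31, 1 was called higher and 2 lower, and of the 45, 2 were called higher and 1 lower. All tested genes gave 11.9% higher and 5.98% lower, with 52.0% below 0. The difference between these classes was not tested, since genes are not replicates.

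**Figure D3:**
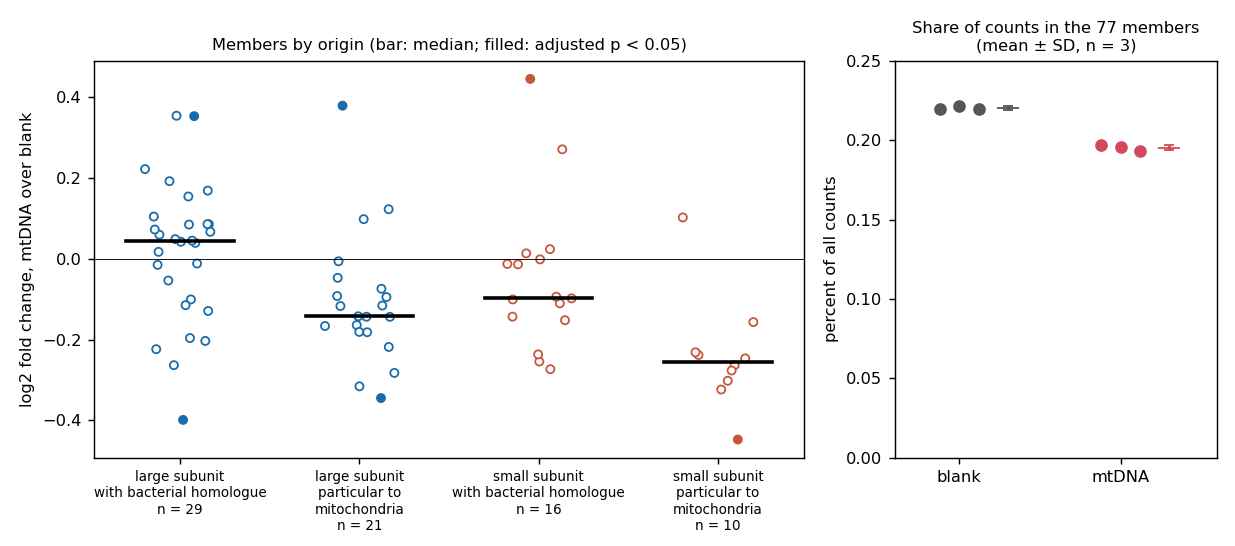
Left, log2 fold change (mtDNA over blank) of each member by subunit and origin, with a bar at the median and filled points for an adjusted p under 0.05. Right, the percent of all counts in the 77 genes per library, with mean and SD (n = 3). Small subunit genes particular to mitochondria lie lowest (median -0.25), and the 3 mtDNA shares lie under the 3 blank ones.

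Mrps36 had the largest difference of any member. Once taken for a ribosomal protein, it is now known as a part of the oxoglutarate dehydrogenase complex, and it was assigned to neither subunit here. It measured 6.12, 8.42 and 8.59 CPM in blank and 4.60, 3.43 and 6.99 CPM in mtDNA libraries. The third mtDNA library lay inside the blank range. The log2 fold change was -0.62 ± 0.25 and did not pass (edgeR adjusted p 0.0995), but without that library it was -0.96 with an adjusted p of 0.0221. Other genes, most of all its pseudogene Mrps36-ps2, share 25.2% of its windows.

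Mrps21, a small subunit protein with a bacterial counterpart, measured 33.0, 33.9 and 37.5 CPM in blank and 48.8, 39.6 and 38.1 CPM in mtDNA libraries. The groups did not overlap but nearly touched in library 3 of each. At 0.27 ± 0.11, the log2 fold change did not pass (edgeR adjusted p 0.0844, and 0.0495 without the third mtDNA library). After the called members, the smallest p belonged to Mrpl37 (-0.28 ± 0.10, edgeR adjusted p 0.0674), Mrps23 (-0.26 ± 0.10, 0.0749) and Mrps7 (-0.24 ± 0.090, 0.0759), all lower. These were chosen after their values were seen, and Mrps21 came after them by p.

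Levels between members were compared as CPM per kilobase of annotated exon, as means of all 6 libraries. They spanned 54.2-fold around a median of 9.49, and 39 of the 77 members lay within 2-fold of that median. Mrps21 was highest at 52.1 CPM per kilobase, followed by Mrpl18, a central protuberance protein, at 35.9. Mrpl54, of the stalk region, and Mrpl52 followed at 33.9 and 33.7, too close to be ordered. Lowest were Mrpl47 at 2.02 and Mrpl23, an exit side protein, at 0.961.

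The length used matters for this order. With the length of the principal transcript, chosen after the values were seen, the span was 33.8-fold and Mrpl52 (89.5), Mrps21 (78.8) and Mrpl33 (76.97) led. Mrpl33 ranked 58 by annotated exon length and 3 by the principal transcript, and Mrpl23 moved from rank 77 to 64. Mrpl47 was lowest on this scale (2.65).

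Mrpl23 was also the member nearest the threshold of 30 reads, with 125 reads over the 6 libraries. It measured 5.18, 4.21 and 5.73 CPM in blank and 4.09, 4.71 and 4.23 CPM in mtDNA libraries, with overlapping groups (log2 fold change -0.20 ± 0.25, edgeR adjusted p 0.663). On the other side of the threshold stood Mrpl53, a stalk region protein listed at 0 reads in all libraries. A same-strand gene, Gm42688, covers 88.0% of its exons in the annotation and had 40 reads in blank and 21 in mtDNA libraries, so the 0 does not show that Mrpl53 was silent. Reads per member were otherwise 125 to 1647, with a median of 677.

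Mrpl30 shares its promoter region with Mitd1, a gene on the other strand whose product acts in the last step of cell division. Their starts in RefSeq are separated by 65 bases. Mitd1 measured 10.8, 13.0 and 13.1 CPM in blank and 39.1, 33.6 and 37.9 CPM in mtDNA libraries. The groups were far apart. Mitd1 rose 2.97-fold (log2 fold change 1.57 ± 0.13, adjusted p 2.03e-09 in edgeR), beside the 1.28-fold rise of Mrpl30, and it was called in all 15 alternatives. The ISRE of Mitd1 shown above lies 237 to 229 bases before the Mitd1 start. It therefore lies within Mrpl30, with its far end 171 bases beyond the start of that gene.

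Mitd1 was named after its values were seen, so the other members were examined in the same way. A head-to-head partner within 1000 bases was found for 23 members, and 22 of these partners were tested. Of the partners, 2 rose (Mitd1 and the proteasome gene Psma2, 0.27, beside Mrpl32) and 2 fell (Klc4, -0.27, beside Mrpl2, and Ncapd2, -0.26, beside Mrpl51), which is 18.2% beside 17.8% of all tested genes. Mrpl30 and Mitd1 were the only such pair with both genes called. For the other called members with a partner the partner was not called, with log2 fold changes of -0.06 for Fau (beside Mrpl49), -0.07 for Ppp1r10 (beside Mrps18b) and -0.06 for Helq (beside Mrps18c).

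Motifs were counted in the 250 bases before the start, on both strands, and no 2 different motifs overlapped. The ETS motif was in 17 of the 68 members with an entry (25%), in 16.9% of tested genes and in 7.83% of all entries. The NRF1 motif was in 8 members (11.8%), in 5.23% of tested genes and in 2.56% of all entries. The ISRE core was in 7 members (10.3%), in 8.00% of tested genes and in 8.18% of all entries, and the YY1 motif (AAGATGGCG) was in 2 members (2.94%), in 1.56% of tested genes and in 0.710% of all entries.

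The 7 members with an ISRE core were Mrpl3, Mrpl20, Mrpl55, Mrps18a, Mrps18c, Mrps21 and Mrps31, of which Mrps18c alone was called. Those with a sequence shown above had log2 fold changes of 0.44 (Mrps18c), 0.27 (Mrps21) and 0.12 (Mrps18a). Those not shown had 0.04 (Mrpl20), -0.09 (Mrpl55), -0.11 (Mrpl3) and -0.16 (Mrps31). In Mrps18c this core lies 21 to 13 bases before the start and the ETS motif 156 to 150 bases before it. Mrps18a holds both motifs in the reverse order, with the core at 92 to 84 bases and the ETS motif at 26 to 20 bases before the start. The NRF1 motif was present in Mrpl39, which rose, and in Mrps18b, which fell, and in Mrpl39 a second match overlaps the one shown. None of the searched motifs was found in the window of Mrpl30, Mrpl11 or Mrpl49. A match describes letters only, and binding was not measured.

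Few other genes of mitochondrial translation were called. Of the 5 mitoribosomal proteins known by other names, among them Dap3 of the small subunit, none was called by edgeR or DESeq2, and none had an unadjusted p under 0.05. The median was -0.16, and the smallest p belonged to Gadd45gip1 (log2 fold change -0.23 ± 0.14, edgeR adjusted p 0.283). Assembly and rRNA modification factors gave no call by either tool among 22 tested of 23 (2 at an unadjusted p under 0.05), with a median of -0.10. The helicase Dhx30 came closest (-0.23 ± 0.090, edgeR adjusted p 0.0812). All tested genes gave 17.8% called by edgeR and 29.6% at an unadjusted p under 0.05.

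Among 13 translation factors and insertion proteins 1 fell, the elongation factor Tufm, which delivers aminoacyl-tRNAs to the mitoribosome. Tufm measured 46.6, 57.9 and 56.8 CPM in blank and 46.0, 45.4 and 40.9 CPM in mtDNA libraries. Its first blank library came close to the mtDNA range. Its log2 fold change was -0.29 ± 0.095, with an edgeR adjusted p of 0.0356, and the call was lost in DESeq2, after removal of the GC trend, and without library 2 or 3 of either group (adjusted p 0.0570 to 0.227). The translation lists together had 1 gene called of 40, or 2.5%, beside 17.8% of all tested genes, with a median of -0.15. The groups did not overlap for 1 gene that was higher and 8 that were lower, beside 17.9% and 15.6% of all tested genes. These lists summed to 861 ± 3.66 CPM in blank and 802 ± 12.4 CPM in mtDNA libraries (SD, n = 3).

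Beside 5.98% lower of all tested genes, 1 fell of 9 tested regulators of nuclear mitochondrial genes. Pprc1, a coactivator of such genes, measured 52.5, 46.9 and 47.7 CPM in blank and 34.8, 37.1 and 38.1 CPM in mtDNA libraries, with a wide gap between the groups. Its log2 fold change was -0.41 ± 0.090 (edgeR adjusted p 0.00213), and it was called in all 15 alternatives. Ppargc1b, a further coactivator named after its values were seen, was the other regulator with an unadjusted p under 0.05. It measured 4.47, 5.21 and 6.45 CPM in blank and 8.43, 8.996 and 6.56 CPM in mtDNA libraries, and did not pass (0.57 ± 0.22, edgeR adjusted p 0.0850). Its groups did not overlap but nearly touched, since 6.45 and 6.56 CPM differ by less than 1 read is worth. The transcription factors Nrf1 (-0.10), Gabpa (-0.0072) and Myc (-0.045) and the mitochondrial DNA-packaging factor Tfam (0.00063) were not called.

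The products of mitochondrial translation join nuclear-encoded subunits in the respiratory chain. Of 77 tested nuclear respiratory chain genes none was called by edgeR or DESeq2, 2 had an unadjusted p under 0.05, and the median was 0.0047. Cox6c, of cytochrome oxidase, had the smallest p (0.14 ± 0.063, edgeR adjusted p 0.126). Over all tested genes edgeR called 17.8%, 5.98% of them as lower, and 29.6% had an unadjusted p under 0.05. Of the 7 tested mitochondrially encoded protein genes 1 fell, mt-Nd5 (-0.19 ± 0.064, edgeR adjusted p 0.0391), with a median over the list of 0.033. That call was lost in DESeq2 and without blank library 1 or 3 or mtDNA library 2. Of 13 such genes in the count table only 8 had any read, and mt-Co2, mt-Atp8, mt-Co3, mt-Nd3 and mt-Nd4l had none. The list thus covers only a part of the products of mitochondrial translation. The cause of the missing reads was not tested, and they do not show that these genes were silent.

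The ribosomal RNAs of the mitoribosome, read in these poly(A) libraries and examined after their values were seen, were higher in mtDNA libraries. The large rRNA mt-Rnr2 measured 1183, 1108 and 1027 CPM in blank and 1292, 1494 and 1460 CPM in mtDNA libraries. Its groups did not overlap, and it rose by a log2 fold change of 0.36 ± 0.057 (edgeR adjusted p 7.14e-05), in all 15 alternatives too. The small rRNA mt-Rnr1 rose from 425 ± 30.1 to 489 ± 18.9 CPM (SD, n = 3), a log2 fold change of 0.20 ± 0.055 (edgeR adjusted p 0.0128). The latter call was lost with upper-quartile scaling (0.110), library totals (0.265) and without blank library 3 (0.114) or mtDNA library 2 (0.0800). RNA from the cells' own mitochondria and from the transfected DNA cannot be told apart in these counts.

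The cytosolic ribosome is built from its own set of proteins. Their genes also leaned downward, with 70 of 82 tested below 0 and a median of -0.045, beside -0.013 for all tested genes. Without blank library 2 the median was -0.016, with 52 of 81 below 0, and it stayed below 0 in all 15 alternatives. The groups did not overlap for 11 of the 82, all lower, beside 15.6% lower of all tested genes.

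Of 22 tested cell cycle genes 15 fell and none rose in edgeR, beside 5.98% lower of all tested genes. DESeq2 called 6 of them, all lower, beside 1.4% of its genes. The median was -0.28, and the replication helicase genes Mcm3 (-0.36 ± 0.067) and Mcm5 (-0.33 ± 0.064) had adjusted p-values of 0.000372 and 0.00065 in edgeR. Whether the part of dividing cells in the cultures bears on the members' values was not tested.

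**Figure D4:**
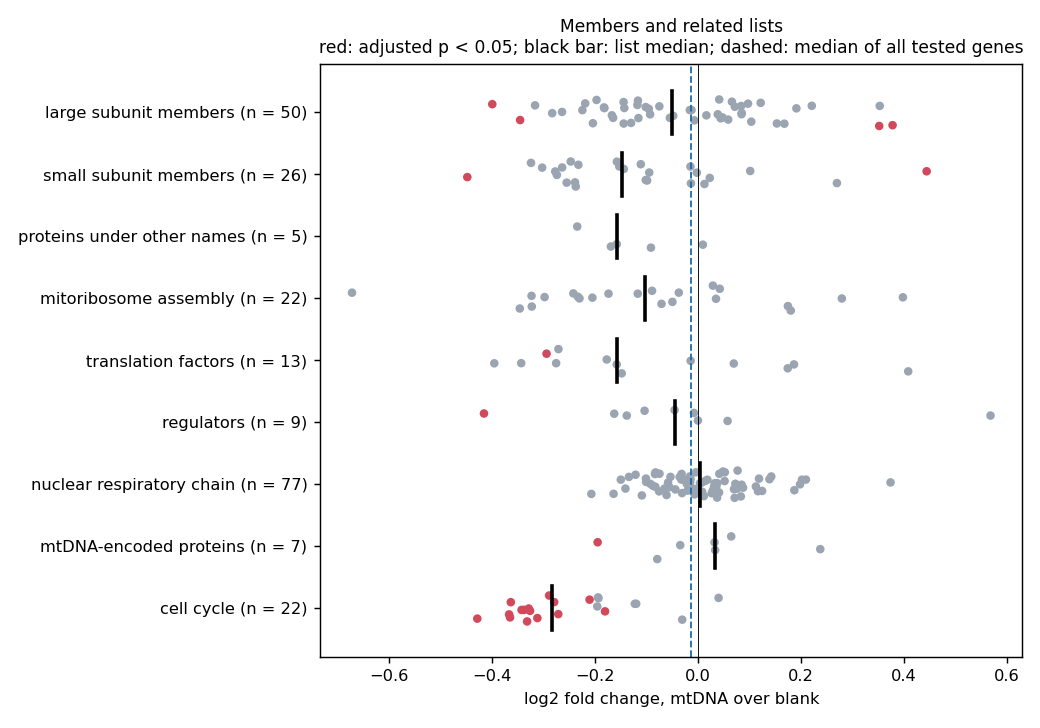
Log2 fold change (mtDNA over blank) of each tested gene in the members by subunit and in 7 related lists, with a black bar at each list's median. Red points passed an adjusted p of 0.05, and the dashed line is the median of all tested genes (-0.013). On each side there are 2 red points in the large subunit and 1 in the small subunit. Each other mitochondrial list holds at most 1, and in the cell cycle list they gather on the lower side (15 of 22).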

How the data were processed

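Poly(A) RNA was read as single-end reads of 75 bases, per the labels' protocols. The authors deposited raw read counts per gene in 1 table, without normalization. Per the submitters' processing notes, STAR 2.7.10a, the build GRCm39, FastQC and DESeq2 were used. Neither the annotation release nor the strand setting is given in the sources used here. The table carries Ensembl IDs, and 52083 of 55359 found a symbol in GENCODE M21 (GRCm38), which also gave lengths, GC content and overlaps, so coordinates are printed only for RefSeq promoters. All columns were used.

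Both groups were compared with edgeR 4.0.16 (R 4.3.3): default expression filter, TMM factors, quasi-likelihood test, two-sided, Benjamini-Hochberg adjustment over 11190 tested genes, threshold 0.05. The SE comes from the fold change and its test statistic. On simulated data the procedure recovered 36% of 1.2-fold and 86% of 1.5-fold changes, so changes of about 1.2-fold were often missed there. The simulation changed far fewer genes than were called here and gave genes of equal level the same spread. Its rates therefore need not hold for these data. At these depths 3 reads equal 0.601 to 0.767 CPM, counting error only. The members, lists and rule for named genes were chosen with earlier results of these data known. The rule took called members, the largest rise and fall, the 4 highest and 2 lowest levels, members nearest 30 reads, 7 fixed members and, per list, the genes with the smallest p. Mitd1, the other partners, Syvn1, the rRNAs, promoter motifs, principal-transcript lengths and genes named as such were added after values were seen. Libraries with neighbouring title numbers correlated at 0.0404 to 0.0449 and the others at -0.0486 to 0.00597. Since none was over 0.1 and no label pairs them, they were not treated as pairs. Alternatives were other scalings, filters, DESeq2 1.42.0, limma-voom (limma 3.58.1), the block, a GC correction (loess span 0.5) and omission of each library. Calls in the list of cytosolic ribosomal proteins are not reported here.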

Additional observations from a re-analysis of the deposited data

How the results depend on the processing

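The number of members called higher (3) was 1 with library totals and 1 with DESeq2. The number called lower (3) was 14 with upper-quartile factors, 21 with library totals and 0 with DESeq2, and 0 to 2 when a library was left out (all tested genes 3.59% to 4.58%). The members' median log2 fold change (-0.10) was -0.17 with upper-quartile factors, -0.22 with library totals, -0.10 without the filter, -0.075 with the GC trend removed, and -0.10 to -0.046 with a library left out. For the large subunit the median (-0.051) was -0.13, -0.17 and -0.026 with upper-quartile factors, library totals and the GC correction, and -0.085 to -0.024 over omissions. For the small subunit (-0.15) it was -0.22 with upper-quartile factors and -0.27 with library totals, and -0.18 to -0.047 over omissions. Members with a bacterial counterpart (-0.0015) gave -0.078 and -0.12 under the same scalings and -0.044 to 0.013 over omissions, and those particular to mitochondria (-0.16) gave -0.24 and -0.28, and -0.21 to -0.11. Of the other translation genes 1 was lower; this was 3 with upper-quartile factors, 7 with library totals, 0 with DESeq2, 0 with the GC correction and 0 to 1 over omissions. The cause of these shifts was not tested. The replicate block of neighbouring title numbers kept the member counts at 3 higher and 3 lower and moved the count over all tested genes from 1996 to 2134. Each library correlated best with its own neighbour, a hint from the data and not from the design. Of 435 values of single genes under alternatives, 378 kept their side of the threshold, 47 lost the call and 10 gained it. No gene called in the main or the alternative fit changed sign between them. Mrpl54, called in neither, went from 0.098 to -0.020 with library totals alone. Depth limits members with few reads most: standard errors ran from 0.083 to 0.25.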
